A study of Mus musculus with 2 samples.

Results

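Endoderm transcription factors are DNA-binding proteins that set up the endoderm lineages of the mouse embryo. The RNA of 9 of their genes, *Gata4*, *Gata6*, *Sox17*, *Sox7*, *Foxa2*, *Hnf4a*, *Foxa1*, *Foxq1* and *Eomes*, was followed in the non-polyadenylated (NPA) RNA of mouse embryonic stem cells (ESCs) and of neuronal progenitor cells (NPCs) made from them. The 9 genes stand among 37310 genes of the GENCODE M1 annotation of the mm9 genome build, and they were selected on their biology and on their exonic read counts in both libraries, which were already known. Differences in exonic reads between the libraries are therefore given as a description, while strand, position within the gene, intronic reads and neighbouring RNA were not used to select them.

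The ESCs were the male R1 line, grown with leukaemia inhibitory factor on a feeder layer of mouse embryonic fibroblasts that had been stopped from dividing with mitomycin C. The NPCs came from the same line. They were kept without leukaemia inhibitory factor as embryoid bodies for 4 days, replated on poly-L-ornithine and fibronectin in insulin, transferrin and selenium medium, and gathered on day 7. In both, polyadenylated RNA was drawn off total RNA with oligo(dT) beads, ribosomal RNA was depleted, and the remainder was sequenced with its strand kept. There was 1 library for each cell type from 1 line, so no spread between replicates can be given and no test between cell types was made. In such bulk RNA, fewer cells of a type and less RNA per cell cannot be told apart.

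The early embryo has several endoderms. Primitive endoderm forms beside the pluripotent epiblast and gives rise to visceral endoderm, an absorptive epithelium, and to parietal endoderm, which secretes a thick basement membrane. Definitive endoderm forms later, at gastrulation, and builds the gut. GATA6 and GATA4, zinc-finger proteins that bind GATA sites, and the HMG-box proteins SOX17 and SOX7 are core regulators of primitive endoderm. The forkhead proteins FOXA2 and FOXA1 and the nuclear receptor HNF4A act in visceral endoderm and later in gut and liver, and the T-box protein EOMES acts in the early endoderm and mesoderm of the gastrula and in trophoblast. Their mRNAs are ordinary polyadenylated transcripts, and the NPA fraction is depleted of such RNA but not free of it.

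The ESC library held 4271306 mapped reads and the NPC library 4399729, so that 1 read equalled 0.234 and 0.227 units of RPM (reads per 1000000 mapped reads). RPKM is RPM divided by the exonic length in kb. Intervals printed here for counts and ratios are 95% intervals that cover counting error only, because the reads carry no molecular identifiers and copies made by PCR are not independent molecules. The ESC label could be checked against *Pou5f1* (2623 reads in ESC and 724 in NPC), *Sox2* (879 and 134) and *Nanog* (1576 and 601), the core pluripotency factors, which were all higher in the ESC library. Neural genes had few reads in the NPC library. Of 14 neural progenitor genes matched in the annotation, *Pax6* had 1 and 12 reads, *Zic1* 1 and 22, and *Nes*, the intermediate filament of neural progenitors, 66 and 121. *Dll1* (70 and 40), *Ncan* (33 and 14) and *Tubb3* (109 and 87) had fewer reads in NPC than in ESC, and *Olig2* had none in either library.

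Across the 9 genes, reads on the gene strand over exons numbered 116 in the ESC library and 2457 in the NPC library. That was 27.2 and 558 RPM, a ratio of 20.6 (interval 17.1 to 25). Of the 9, 8 had at least 10 reads in both libraries together, and 7 of those 8 were more than 2-fold higher in NPC (log2 ratio with 1 read added in each library). None was more than 2-fold higher in ESC, and *Eomes* lay within 2-fold. Of all 14858 genes with at least 10 reads, 24.6% were more than 2-fold higher in NPC and 12.8% more than 2-fold higher in ESC. Those shares were 15.7% and 18.7% with scaling by the median of ratios and 12% and 11.4% with each start position counted once, while the counts of the 8 genes were the same. The median log2 ratio of the 8 was 4.63, beside 0.34 over all genes. Since the genes were chosen with these counts known, nothing is read from that contrast. *Hnf4a*, with a log2 ratio of 2.44, lay nearest to the 2-fold limit from above, and *Eomes*, at 0.16, was the gene that did not reach it.

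**Figure D1:**
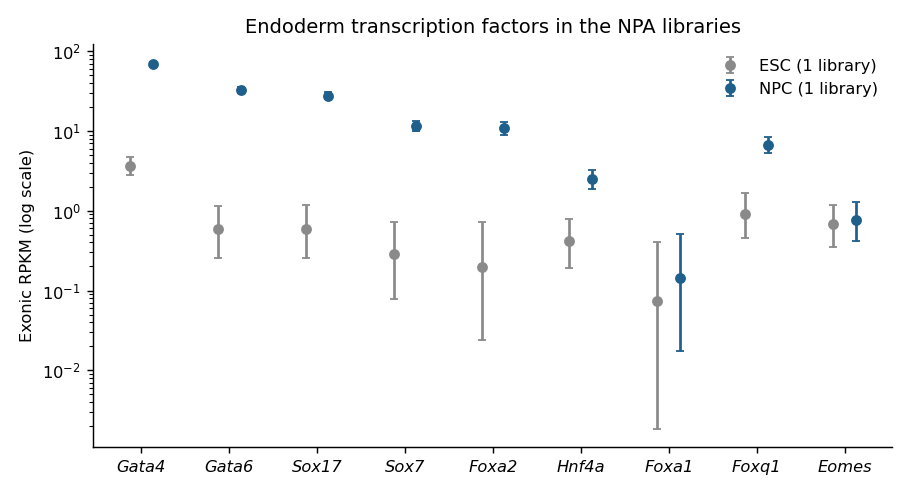
Exonic RPKM (reads per kb of exon and per 1000000 mapped reads, log axis) of each gene in the ESC library (grey) and the NPC library (blue), with 1 library per cell type and bars for the exact Poisson 95% interval of the read count. NPC points sit apart from ESC points for 7 genes, from *Gata4* at 3.65 and 68.5 to *Hnf4a* at 0.42 and 2.49, and the bars overlap for *Foxa1* and *Eomes*.

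*Gata4* gave the most reads of the 9 in both libraries. The gene (ENSMUSG00000021944.8) lies on the minus strand at chr14:63817759-63890529, with 7 transcripts and 3910 nt of exon in all. It had 61 reads (46.7 to 78.4) in ESC and 1179 (1113 to 1248) in NPC, or 3.65 and 68.5 RPKM. The ratio of RPM was 18.8 (14.5 to 24.7). It alone held 48% of the reads of the 9 genes in NPC and 52.6% in ESC, and without it the other 8 genes together had 55 and 1278 reads, a ratio of 22.6 (17.2 to 30.1). The read found most often in the coding sequence of *Gata4* is shown as an example of what was counted. It lies at chr14:63820380-63820427 of mm9, on the minus strand, and had 1 copy in ESC and 10 in NPC.
Gata4 read: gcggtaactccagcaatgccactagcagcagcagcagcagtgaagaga

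*Gata6* (ENSMUSG00000005836.8, plus strand, chr18:11052508-11085633), the factor that starts primitive endoderm, had 8 reads (3.45 to 15.8) in ESC and 459 (418 to 503) in NPC. Its levels were 0.586 and 32.7 RPKM and its ratio 55.7 (28 to 130), the highest log2 ratio of the 9 genes. Of the 14858 genes, 0.242% had a higher log2 ratio. With each start position counted once, *Gata6* was not the highest of the 9, at 4.20 beside 4.55 for *Sox7* and 4.37 for *Foxa2*. Over the 2 libraries, the protein-coding genes nearest to *Gata6* in log2(RPM + 1) were *Sox17*, then *Hs3st1* with 10 and 521 reads and *Megf9* with 10 and 386 reads. With only 2 points for each gene, this likeness is a description of 2 levels. *Gata4* and *Gata6* encode related proteins with the same pair of zinc fingers. The longest stretch of coding sequence that they share base for base was 18 nt, shorter than the 48-nt reads.

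*Sox17* and *Sox7*, both of the F group of SOX proteins, were also scarce in ESC and plain in NPC. *Sox17* (ENSMUSG00000025902.7, minus strand, chr1:4481009-4486494) had 8 reads (3.45 to 15.8) in ESC and 383 (346 to 423) in NPC, a ratio of 46.5 (23.4 to 108). *Sox7* (ENSMUSG00000063060.5, plus strand, chr14:64562511-64569569) had 4 reads (1.09 to 10.2) and 169 (144 to 196), a ratio of 41 (15.7 to 152). Both intervals of the ratio overlapped that of *Gata6*. In NPC the level of *Sox17* was 27.6 RPKM and that of *Sox7* 11.6 RPKM.

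These genes encode near relatives, so it matters that their reads could be told apart. The longest identical stretch in their coding sequences was 22 nt, so a 48-nt read cannot lie wholly inside it. Only 1 *Sox17* read and 2 *Sox7* reads of the NPC library overlapped that stretch, and none of the ESC library did. The most frequent coding read of *Sox17*, shown as an example, lies at chr1:4481940-4481987 on the minus strand of mm9 and had 21 copies in NPC and none in ESC.
Sox17 read: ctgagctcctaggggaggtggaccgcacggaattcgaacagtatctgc

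Of the FOXA genes, *Foxa2* was plain in NPC and *Foxa1* was near the limit of detection in both libraries. *Foxa2* (ENSMUSG00000037025.5, minus strand, chr2:147868613-147872705) had 2 reads (0.242 to 7.22) in ESC and 113 (93.1 to 136) in NPC. The ratio of 54.9 had a wide interval, 14.8 to 458, because of the 2 ESC reads. *Foxa1* (ENSMUSG00000035451.6, minus strand, chr12:58641618-58647108), whose product acts beside FOXA2 in later gut and liver, had 1 read in ESC and 2 in NPC, a ratio of 1.94 (0.101 to 115). No difference in *Foxa1* was detectable at this depth, and in NPC it stood at 0.143 RPKM beside 10.8 RPKM for *Foxa2*.

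This pair holds the longest identical coding stretch found, 38 nt, which is also shorter than a read. Over it lay 6 NPC reads of *Foxa2* and the single ESC read of *Foxa1*. The coding read of *Foxa2* seen most often, at chr2:147870474-147870521 on the minus strand of mm9, had 10 copies in NPC and none in ESC.
Foxa2 read: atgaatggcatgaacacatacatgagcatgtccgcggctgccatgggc

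*Foxq1* (ENSMUSG00000038415.8, plus strand, chr13:31650039-31652839), a forkhead gene with a single exon, had 11 reads (5.49 to 19.7) in ESC and 83 (66.1 to 103) in NPC. The levels were 0.919 and 6.74 RPKM and the ratio 7.33 (3.89 to 15.2). Its interval lay below those of *Sox7*, *Sox17* and *Gata6*. A coding read at chr13:31651142-31651189 was its most frequent, with 4 copies in NPC and none in ESC.
Foxq1 read: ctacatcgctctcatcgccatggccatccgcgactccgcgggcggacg

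*Hnf4a* (ENSMUSG00000017950.9, plus strand, chr2:163332544-163398646), whose product drives the genes of lipid and serum protein export in visceral endoderm and liver, had 9 reads (4.12 to 17.1) in ESC and 55 (41.4 to 71.6) in NPC. The levels were 0.42 and 2.49 RPKM and the ratio 5.93 (2.91 to 13.7). *Eomes* (ENSMUSG00000032446.8, plus strand, chr9:118387330-118395250) had 12 reads (6.2 to 21) in ESC and 14 (7.65 to 23.5) in NPC. Its ratio of 1.13 had an interval from 0.486 to 2.68, so that a 2-fold difference in either direction was within the counting error. The log2 ratio of *Eomes* was 0.16 with libraries scaled by their totals and -0.18 with scaling by the median of ratios, so it had no settled direction.

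Every read of the 9 genes whose 48-nt sequence matched mm9 exactly did so at 1 place. These were 113 of 116 reads in ESC and 2392 of 2457 in NPC, 97.4% of each, and the remaining 3 and 65 had no exact match. None matched at more than 1 place.

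**Figure D2:**
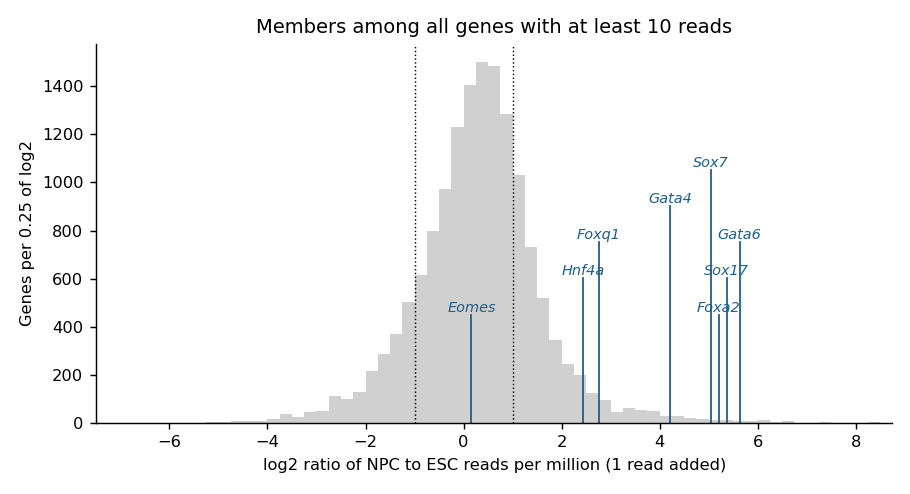
Histogram of the log2 ratio of NPC to ESC RPM (1 read added in each library) over the 14858 genes with at least 10 reads, in bins of 0.25, with dotted lines at 2-fold. Blue lines mark the 8 endoderm factors with at least 10 reads, from *Eomes* at 0.16 to *Gata6* at 5.63; the height of a blue line carries no value and only keeps the names apart.

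Per length, the 9 genes spanned almost the whole range of protein-coding genes in NPC. The median RPKM of the 15219 protein-coding genes with reads was 4.08 in NPC. *Gata4* stood above 96.8% of these genes, *Gata6* above 91.7% and *Sox17* above 89.7%. *Sox7* and *Foxa2* followed at 74.1% and 72.4%, *Foxq1* at 61.3%, *Hnf4a* at 40.8%, *Eomes* at 25% and *Foxa1* at 8.75%. In ESC only *Gata4* was above the median of 3.01 RPKM, at 54.5% of 15049 genes, and the other 8 stood above 3.03% to 28.5% of the genes.

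By RPKM over all annotated exons, neighbours in the NPC order were apart beyond counting error at all steps but 1. *Gata4* was 2.1-fold above *Gata6* per length (1.88 to 2.34), *Gata6* 1.18-fold above *Sox17* (1.03 to 1.36), and *Sox17* 2.37-fold above *Sox7* (1.97 to 2.86). These intervals take reads as independent, and 1 start position held 123 of the 459 *Gata6* reads, so the small step from *Gata6* to *Sox17* is not settled. *Sox7* and *Foxa2* did not differ beyond counting error, with a ratio of 1.07 (0.842 to 1.38). *Foxa2* was 1.61-fold above *Foxq1* (1.2 to 2.16), *Foxq1* 2.7-fold above *Hnf4a* (1.9 to 3.87), *Hnf4a* 3.25-fold above *Eomes* (1.78 to 6.33) and *Eomes* 5.37-fold above *Foxa1* (1.23 to 48.7). In ESC, *Gata4* was 3.97-fold above the next gene, *Foxq1* (2.07 to 8.37), and no later neighbours in the order could be told apart. Exonic length was the union over all annotated transcripts, which lowers RPKM where 5′ exons have few reads, as in *Hnf4a* and *Sox17*. Over coding sequence alone the values were 201 NPC starts per kb (177 to 227) for *Sox17*, 175 (153 to 198) for *Gata4* and 65 (53.6 to 78) for *Gata6*. There *Gata6* lay below both *Sox17* and *Gata4*, whose intervals overlapped, so those 2 genes were not put in order.

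The closest relatives of the 9 genes were not all alike. Among the other GATA genes, *Gata2* had 5 reads in ESC and 94 in NPC, *Gata3* had 2 and 42, *Gata1* had 25 and 11, and *Gata5* had 1 and 0. The other F-group SOX gene, *Sox18*, an endothelial factor, had no read in either library, which allows up to 0.702 RPM in ESC and 0.682 RPM in NPC. *Foxa3*, the liver member of the FOXA genes, had 7 and 9 reads. *Hnf4g* had none in either library, and the relatives of *Eomes* had 3 and 0 reads (*Tbr1*) and 0 and 1 read (*Tbx21*). *Gata4*, *Gata6*, *Sox17*, *Sox7* and *Foxa2* had a higher RPKM in NPC than each of these relatives, while *Gata2*, at 6.38 RPKM, was above *Hnf4a* at 2.49 RPKM. Because the 9 genes were selected with their NPC counts known, nothing is read from this contrast with their relatives.

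Where the reads lay along the exons was not used to choose the genes. In NPC, reads of *Gata4*, *Gata6* and *Sox17* lay mostly towards the 3′ end of the annotated exons, while those of *Sox7*, *Foxa2* and *Foxq1* were spread more evenly. The measure was the share of read starts that fell 5′ of the midpoint of the exonic length. That length is the union over all annotated transcripts, so 5′ exons with few reads, as in *Sox17*, lower the share. Over 8077 protein-coding genes with at least 50 starts in NPC, the median gene had 48.4% of its starts there (quartiles 35.3% and 60.9%).

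*Gata6* had 56 of 456 starts 5′ of the midpoint, or 12.3% (9.41% to 15.6%, Clopper-Pearson), and *Sox17* had 49 of 368, or 13.3% (10% to 17.2%). Of the 8077 genes, 3.88% and 4.25% had a lower share. *Gata4* had 244 of 1174, or 20.8% (18.5% to 23.2%), with 9.19% of genes lower. The shares of *Sox7* (43.8%, 36.2% to 51.6%), *Foxa2* (41.6%, 32.4% to 51.2%), *Hnf4a* (37.7%, 24.8% to 52.1%) and *Foxq1* (50.6%, 39.4% to 61.8%) lay within the middle range of genes. For *Hnf4a* this does not show an even spread, because its last exon is 2962 of 5019 exonic nt and the midpoint lies inside it. Of its starts, 7.55% fell in the first of 3 equal parts of the length, beside 28.9% for the median gene. In ESC only *Gata4* had at least 50 starts, with 17 of 60, or 28.3% (17.5% to 41.4%), beside a median gene at 50.9%. The *Gata4* share in ESC and that in NPC had overlapping intervals.

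**Figure D3:**
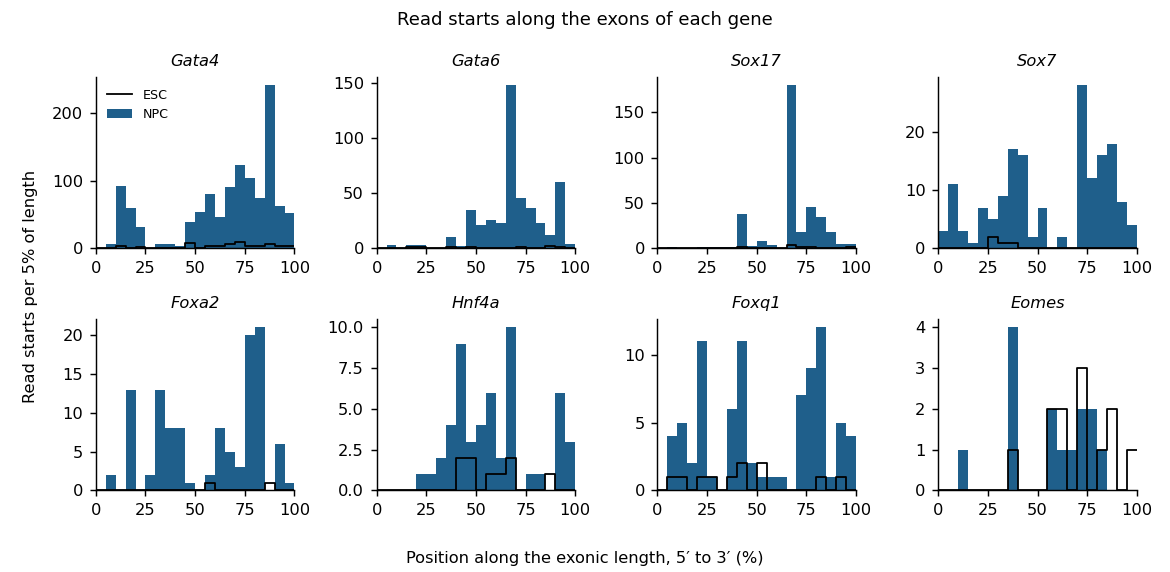
Number of read starts in each 5% of the exonic length, from the 5′ end (left) to the 3′ end (right), in the NPC library (blue bars) and the ESC library (black line) for the 8 genes with at least 10 reads, each with its own vertical scale. The highest NPC bars of *Gata4* (241 starts), *Gata6* (148) and *Sox17* (180) lie 3′ of the midpoint, and *Gata4* has a second group of starts near its 5′ end.

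By exon, the last exon carried most NPC reads of every gene with more than 1 exon. For *Gata4* it held 837 of 1179 reads, for *Gata6* 371 of 459, for *Sox17* 328 of 383, for *Sox7* 155 of 169, for *Foxa2* 111 of 113 and for *Hnf4a* 45 of 55. The last exons are also the longest ones, so the density is the fairer measure. In *Gata4* the last exon had 513 reads per kb in NPC, exon 4 (1110 nt, with the start codon) 177, and exon 7 397. The last exon was also the densest in *Gata6* (281, beside 262 in exon 4), *Sox17* (188, beside 125 in exon 4), *Sox7* (52, beside 43.8 in exon 1) and *Foxa2* (57, beside 16.4 in exon 2). It was not the densest in *Hnf4a* (15.2, beside 19.2 in exon 11) or in *Eomes* (4.84, beside 32.8 in exon 3, on few reads).

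Several annotated 5′ exons had few or no reads. Exons 1 and 2 of *Gata4* had none in either library and its noncoding exon 5 had 1 in NPC. Exons 1 to 7 of *Hnf4a*, which include its alternative first exons, had none, and exons 1 and 3 of *Foxa2* had none. Exons 1 to 3 of *Sox17* had 6 reads together in NPC over 3 exons, beside 49 in exon 4. *Gata4*, in contrast, had 184 starts in its 879 nt of 5′ UTR, or 209 per kb (180 to 242), above the 175 per kb (153 to 198) of its coding sequence.

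The 3′ UTR was also compared with the coding sequence of the same gene, which leaves out the 5′ UTR. Over 7151 protein-coding genes in NPC, the median density of starts in the 3′ UTR was 0.696 times that in the coding sequence (quartiles 0.388 and 1.1), and 29.6% of genes were above 1. Of the 7 endoderm genes with at least 50 NPC reads, 6 were above 1 with their whole interval. *Gata6* had 338 starts in the 3′ UTR and 115 in the coding sequence, a density ratio of 4.51 (3.64 to 5.62), and 99.2% of genes were lower. *Gata4* had 756 and 233, a ratio of 2.98 (2.57 to 3.47), with 98% of genes lower.

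*Hnf4a* had 45 and 8 starts and a ratio of 3.12 (1.46 to 7.67), which is raised by the coding parts of its exons 1 to 7, counted in the coding length but without reads. *Foxq1* followed with 38 and 22 and a ratio of 2.44 (1.41 to 4.33). *Sox7* had 129 and 40 starts, a ratio of 1.78 (1.24 to 2.6), and *Foxa2* 48 and 65, a ratio of 1.62 (1.09 to 2.39). *Sox17* was the exception, with 109 starts in the 3′ UTR and 253 in the coding sequence, a ratio of 0.689 (0.545 to 0.866) that 49.7% of genes were below. Its starts gathered in the last part of the coding sequence instead. With each start position counted once the ratio of *Sox17* was 1.05, that of *Gata6* 2.55 and that of *Gata4* 1.78. In ESC, *Gata4* had 35 and 19 starts and a ratio of 1.69 (0.942 to 3.13), with an interval that includes 1.

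**Figure D4:**
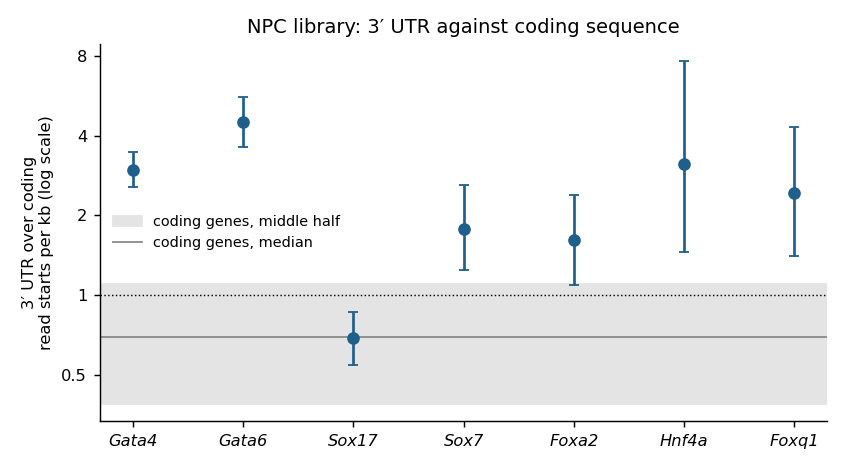
Density of NPC read starts in the 3′ UTR divided by that in the coding sequence (log axis) for the 7 genes with at least 50 NPC reads, with 95% binomial intervals; the grey band and line give the quartiles and median of 7151 protein-coding genes. Of the 7 points, 6 lie above 1, from *Foxa2* at 1.62 to *Gata6* at 4.51, and *Sox17* lies at 0.689, beside the median gene at 0.696.

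The number of start positions behind these counts differed between genes. In NPC the 1179 reads of *Gata4* came from 416 start positions, the 459 of *Gata6* from 177, and the 383 of *Sox17* from 140, or 2.83, 2.59 and 2.74 reads per start. *Sox7* had 1.51, *Foxa2* 1.53, *Foxq1* 1.57 and *Hnf4a* 1.34 reads per start. A single start position in the 3′ UTR of *Gata6* held 123 of its NPC reads, 26.8%, and the 3 most used positions of that gene held 35.1%. For the other 6 genes with at least 50 NPC reads, the 3 most used positions held 11.2% to 20.4%. Copies of 1 molecule made by PCR and separate molecules cut at 1 place cannot be told apart in these reads. The reads covered 72.8% of the exonic bases of *Gata4* in NPC, 61% of *Gata6*, 59.4% of *Sox7*, 49.7% of *Foxa2*, 48.6% of *Sox17*, 45.1% of *Foxq1* and 24.8% of *Hnf4a*.

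Intronic reads can come from RNA that has not been spliced or from other RNA of the intron, and these were not told apart. Such reads were likewise no part of the choice of genes. Sense reads wholly outside exons numbered 22 in ESC (13.8 to 33.3) and 399 in NPC (361 to 440), over 173659 nt of intron in the 8 genes that have introns. *Gata4* held 231 of the NPC reads (6 in ESC) and *Gata6* 135 (7 in ESC). *Sox17* and *Hnf4a* had 10 each in NPC (1 and 4 in ESC), *Sox7* 6 and *Foxa2* 5 (none in ESC), and *Foxa1* and *Eomes* 1 each (0 and 4 in ESC).

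Per kb, the introns of *Gata6* had 4.51 NPC reads (3.78 to 5.34), those of *Sox17* 4.29 (2.06 to 7.89), those of *Gata4* 3.35 (2.94 to 3.82) and those of *Hnf4a* 0.164 (0.0786 to 0.302). Intron density as a percentage of exon density was 3.14% in *Gata6*, 3.53% in *Sox17*, 3.11% in *Sox7*, 1.5% in *Hnf4a* and 1.11% in *Gata4*. The median of 7760 protein-coding genes was 2.4% (quartiles 1.34% and 4.51%), so *Gata6*, *Sox7* and *Hnf4a* lay between the quartiles. The value of *Sox17* rested on 10 reads at 5 start positions, with 9 of the reads in its intron 3 (281 nt), and 23 reads of the gene had their 5′ end in an intron. Only 19% of genes were below *Gata4*. *Foxa2* was at 6.09%, above 83.7% of genes, on 5 intronic reads.

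Within genes the intronic reads were spread over many positions. Intron 4 of *Gata4* (26928 nt) had 93 NPC reads at 72 start positions and intron 3 (3505 nt) 37 at 27 positions. Intron 9 (524 nt) was the densest, with 36.3 reads per kb from 19 reads. In *Gata6* the last intron (19523 nt) had 69 reads at 56 positions, and intron 2 (3862 nt) had 41, together with all 7 intronic ESC reads of the gene. Reads that overlap repeats were removed before deposit, so densities over introns that hold repeats come out too low.

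Almost no reads lay on the opposite strand. Over the exons of the 9 genes, 2 of 118 reads in ESC (1.69%, 0.206% to 5.99%) and 4 of 2461 in NPC (0.163%, 0.0443% to 0.416%) were antisense. Over 16218 protein-coding genes with no annotated gene on the other strand the share was 0.304% in ESC and 0.222% in NPC, inside both intervals. Of the 9 genes, *Gata6*, *Hnf4a* and *Foxq1* do have an annotated gene on the other strand. The antisense reads were 1 each for *Hnf4a* and *Eomes* in ESC, and in NPC 2 for *Sox17* and 1 each for *Gata4* and *Foxq1*. The gene opposite *Foxq1*, A530084C06Rik, had 1 read in NPC, and that opposite *Hnf4a*, 0610008F07Rik, had none in either library.

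The RefSeq promoter table (GRCm38.p6) held entries for *Foxa2*, *Hnf4a*, *Eomes* and *Foxa1*, and the 250 bases before each start were searched on both strands for GATA letters (AGATAA or AGATAG). FOXA letters (TGTTTAC or TGTTTGC or TATTTAC), HNF4 letters (CAAAGTCC or CAAAGGTC) and SOX letters (ACAATGG or ACAATAG or ACAAAGG) were searched too. Of 2 *Hnf4a* starts and 3 *Foxa2* starts, 1 each had a GATA match, set in capitals, and 16.5% of 32851 promoters of this length hold one. That share is for single promoters, while 2 and 3 starts of these genes were searched. Exons 1 to 7 of *Hnf4a* and exons 1 and 3 of *Foxa2* had no reads in either library. The sequences are shown as examples of a match, and use of these starts was not tested. The *Hnf4a* sequence is chr2:163506607-163506856 on the plus strand and the *Foxa2* sequence chr2:148045465-148045714 on the minus strand.
Hnf4a promoter: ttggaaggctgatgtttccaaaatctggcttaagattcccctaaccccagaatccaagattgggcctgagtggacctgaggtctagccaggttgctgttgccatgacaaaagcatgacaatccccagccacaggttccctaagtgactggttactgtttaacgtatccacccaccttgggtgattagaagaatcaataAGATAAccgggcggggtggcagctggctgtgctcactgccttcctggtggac
Foxa2 promoter: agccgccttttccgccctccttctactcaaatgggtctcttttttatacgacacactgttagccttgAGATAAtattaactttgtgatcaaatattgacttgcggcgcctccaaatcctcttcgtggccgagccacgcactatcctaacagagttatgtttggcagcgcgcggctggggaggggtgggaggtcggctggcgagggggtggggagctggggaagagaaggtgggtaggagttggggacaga
A match of 6 letters is a description of the sequence and not a binding site, and the entries for *Eomes* and *Foxa1* had no GATA match. *Eomes* had 1 HNF4 match (2.19% of promoters hold one) and *Foxa1* 1 FOXA match (9.73%), and no entry had a SOX match (9.83%).

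Outside the genes, NPC reads stood on the opposite strand upstream of *Gata6* and *Sox17*. In the 10 kb before the start of *Gata6* there were 37 antisense reads in NPC and none in ESC, 6 of them within 2 kb. The divergent lincRNA annotated there, 1010001N08Rik (chr18:11049085-11052565), held 7 NPC reads and none in ESC. Before *Sox17* there were 14 in NPC and 1 in ESC, and before the other 7 genes at most 2 in NPC. Sense reads in the 5 kb past the annotated end numbered 19 for *Gata4*, 18 for *Sox17*, 17 for *Foxa2* and 9 for *Gata6* in NPC, with 3, 0, 0 and 0 in ESC, and the other 5 genes had none in NPC. Among annotated neighbours within 10 kb, 2 had at least 10 reads. The DNA repair gene *Neil2*, downstream of *Gata4* on the same strand, had 18 reads in ESC and 15 in NPC. The noncoding 9030622O22Rik, which starts downstream of *Foxa2* on the same strand (chr2:147770476-147865939), had none in ESC and 17 in NPC. Its start lies inside the 5 kb past *Foxa2*, so the 2 counts of 17 can share reads.

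The genes that these factors work with and control were then set beside them, as lists written with earlier results of these data known. Parietal and visceral endoderm products were mostly higher in NPC, while definitive endoderm genes and the partners of GATA and SOX proteins stayed near the middle of all genes. Each list is described by how many of its genes with at least 10 reads were past 2-fold, beside the 24.6% and 12.8% of all genes and their median of 0.34. Scaling by the median of ratios lowers every log2 ratio by 0.34 and scaling by the reads outside the 10 most abundant genes by 0.14, so values between 0 and 0.34 have no settled direction.

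Of the parietal endoderm products, 17 of 19 were more than 2-fold higher in NPC and none in ESC, with a median log2 ratio of 3.87 and a sum of 1654 RPM in ESC and 21515 RPM in NPC. *Col4a1*, the basement membrane collagen, had 856 and 20753 reads, *Sparc*, a matrix glycoprotein, 1151 and 13828, *Plat*, a plasminogen activator, 8 and 623, and *Fst*, an activin antagonist, 5 and 539. Of the visceral endoderm products, 12 of 14 were higher in NPC and none in ESC, with a median of 3.35 and sums of 151 and 952 RPM. *Afp*, the fetal serum protein, had 1 and 141 reads, *Lrp2*, an uptake receptor, 310 and 1939, *Dab2*, its adaptor, 29 and 705, and *Bmp2* 2 and 123. *Ttr*, a further serum protein of visceral endoderm, had 0 and 37 reads, at least 12-fold higher in NPC with the ESC count taken as 3 reads, while *Apoa4* had no read in either library.

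Definitive endoderm and node genes differed from this. Of 9 with at least 10 reads, 2 were higher in NPC and 2 in ESC, with a median of 0.55 and sums of 213 and 203 RPM. That median had no settled direction, since it was -0.16 with each start once and -0.48 over the 6 genes with at least 50 reads. Of the 18, 7 had no read in NPC, *Cer1*, *Shh* and *Gsc* among them. *Nog*, a BMP antagonist, had 3 and 180 reads and *Lefty1*, a Nodal antagonist, 128 and 14, while the epithelial genes *Epcam* (368 and 280) and *Cldn6* (184 and 278) were within 2-fold. Of the other endoderm transcription factors, 4 of 11 were higher in NPC and 1 in ESC, with a median of 0.30 (-0.04 with scaling by the median of ratios) and sums of 650 and 623 RPM. The nuclear receptor gene *Nr2f2* had 3 and 81 reads. *Sall4* (1966 and 1697) and *Klf5* (335 and 425), which pluripotent cells also express, were within 2-fold.

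The partners of GATA and F-group SOX proteins were expressed in both libraries. Of 11, 2 were higher in NPC and none in ESC, with a median of 0.68 and sums of 584 and 1039 RPM. These 2 were *Ctnnb1*, the gene of β-catenin, with 480 and 1089 reads, and *Smad4*, with 125 and 504, and under either other scaling 1 gene was past 2-fold. *Tle3*, a co-repressor, had 381 and 758 reads and was within 2-fold. Of 15 pluripotency genes, 9 were higher in ESC and 1 in NPC (none under either other scaling), with a median of -1.33 and sums of 2473 and 924 RPM, and *Tdgf1*, the Nodal co-receptor, had 1061 and 149 reads.

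Markers of other cell types that the cultures could hold were read in the same way, and their part in the levels of the 9 genes was not tested. Of the trophoblast genes 3 also stand in another list, as do 2 of the endothelial genes and 3 of the mesoderm genes. Of 8 trophoblast genes, 7 were higher in NPC, with a median of 3.21 and sums of 29.3 and 208 RPM. *Krt7* had 69 and 557 reads and *Elf5* 0 and 22, while *Cdx2* had 0 and 2. Of 8 endothelial genes, 4 were higher in NPC and 1 in ESC, with a median of 1.20 and sums of 149 and 104 RPM. *Cdh5*, the endothelial cadherin, had 0 and 74 reads, *Esam* 6 and 55, *Flt1* 31 and 88, and *Pecam1* 475 and 100, with *Emcn* at 0 in both.

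Mesoderm and heart genes had few reads, with sums of 12.2 and 30.5 RPM. Of 6, 4 were higher in NPC and 1 in ESC, with a median of 1.75, among them *Hand1* (4 and 56 reads) and *Kdr* (9 and 29), while *Mesp2* had 18 and 0 and *Mesp1* and *Hand2* had none in either library. Of 7 neural progenitor genes, 3 were higher in NPC and 1 in ESC, with a median of 0.82 and sums of 66.3 and 74.1 RPM. With a minimum of 50 reads 3 of them remained, with a median of -0.36, so the list had no settled direction. *Pax3* had 0 and 13 reads. The fibroblast genes, which bear on the feeder layer, were within 2-fold in 6 of 9, with a median of 0.50 and sums of 55 and 73.9 RPM. *Col1a2* had 51 and 165 reads and *Thy1* 79 and 12, and *Lum* had none in either library.

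**Figure D5:**
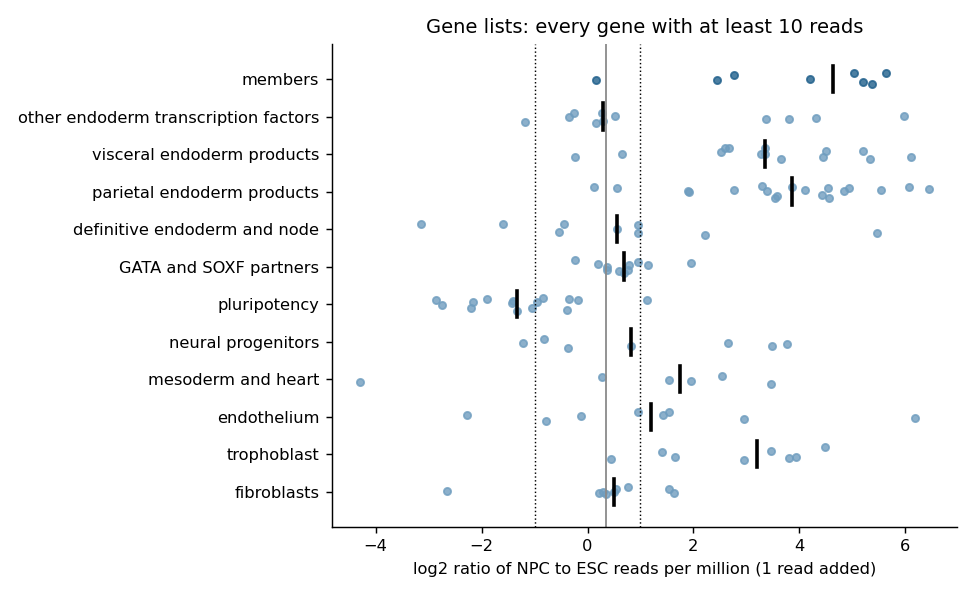
log2 ratio of NPC to ESC RPM (1 read added) of every gene with at least 10 reads in each list, 1 point per gene, with black bars at list medians, a grey line at the median of all genes (0.34) and dotted lines at 2-fold. The highest medians are those of the endoderm factors (top row, 4.63), parietal (3.87) and visceral (3.35) endoderm products and trophoblast genes (3.21). The pluripotency genes (-1.33) sit on the ESC side.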

How the data were processed

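Both libraries were made from total RNA of R1 ESCs and 7-day NPCs. The authors saved the supernatant of 3 rounds of Oligotex selection, depleted ribosomal RNA with RiboMinus, fragmented with RNase III, ligated adaptors to the RNA itself and sequenced on SOLiD 3. Per the submitters' processing notes, reads were mapped to mm9 with Bowtie (version not given in the sources used here), with several placements allowed. The authors took out mitochondrial and ribosomal reads and those over repeats, and deposited intervals, each with a read's sequence and strand, in no other unit. No mitochondrial read was found in the files. Of the intervals, 3.77% in ESC and 4.23% in NPC were shorter than the 48-nt sequence beside them, and some sequences of *Gata4*, *Foxq1* and *Eomes* stood on more than 1 interval. Each interval was counted as a read, and the cause of the short ones was not tested.

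From the deposited intervals, reads that overlapped the union of GENCODE M1 exons by at least 1 base on the gene strand were counted, as RPM and as RPKM by exonic length, with Python 3.11.15, NumPy 2.4.6 and SciPy 1.17.1. Figures were drawn with matplotlib 3.10.9. Libraries were scaled by their totals. Genes with at least 10 reads in both libraries together were compared after 1 read had been added in each, and where a library had no read the bound was set at 3 reads. Counts have exact Poisson intervals, shares Clopper-Pearson intervals and ratios conditional binomial ones, at 95%. The counting and the intervals were tested on simulated data. The simulated reads were independent, so that test does not cover copies made by PCR. With 1 library per group no p-value was computed.

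The 9 genes, the 11 other gene lists and the comparisons were chosen with earlier results of these data known. Named were all 9 genes, from each list the 2 genes with the most reads and the 2 with the largest absolute log2 ratio, the 3 genes nearest to *Gata6* and neighbours with at least 10 reads, except 1 gene and some sequences that are not reported here. Other relatives and markers, at 0 or not, were named after their values were seen, and so was the comparison of 3′ UTR with coding sequence chosen. Of 175 names listed, 4 matched no gene name in the annotation and were not analysed here. Alternatives were other scalings, each start once, other exon sets, filters and folds.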

Additional observations from a re-analysis of the deposited data

How the results depend on the processing

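The counts of 7 endoderm factors more than 2-fold higher in NPC and 0 in ESC held under every alternative run, which were 2 other scalings, each start position once, the 5′ end in an exon, 0.5 read added, a threshold of 4-fold, and minima of 1 and 50 reads. Over the same alternatives the share of all genes higher in NPC ran from 6.95% (threshold of 4-fold) to 25.3% (0.5 read added), and the share higher in ESC from 3.63% to 19.3% (minimum of 1 read). Of 181 values recomputed, 154 stayed within their interval or limit, 20 moved and 7 changed sign. All 9 genes together had a log2 ratio of 4.35, against 4.01 with scaling by the median of ratios, 3.09 with each start once and 3.83 over coding sequence. Of 72 values of single factors, 8 left their interval and 3 changed sign. With each start once *Gata4* came to 2.82, *Gata6* to 4.20, *Sox17* to 3.70 and *Foxq1* to 1.90, and over coding sequence *Gata4* to 3.38, *Gata6* to 4.55, *Sox7* to 3.31 and *Foxq1* to 1.73, the lowest of the 7. *Eomes* ran from -0.18 (median of ratios) and -0.05 (each start once) to 0.40 (intervals of the full 48 nt only, chosen after seeing the data), and *Foxa1* was -0.04 over coding sequence. With each start once the list medians moved to 3.26 for the endoderm factors, 2.05 for parietal endoderm products, 0.17 for GATA and SOX partners, 2.36 for trophoblast and, with a change of sign, -0.16 for definitive endoderm. With the median of ratios they were 0.16 for fibroblast genes and, with a change of sign, -0.04 for other endoderm factors. With at least 50 reads, where fewer genes were compared, definitive endoderm (-0.48 over 6 genes) and neural progenitors (-0.36 over 3) changed sign and mesoderm came to 3.47 on 1 gene. The share of starts 5′ of the midpoint over the 9 genes was 33.9% in ESC and 22.1% in NPC. In NPC it was 28% with each start once, and the first of 3 equal parts held 13.9% in ESC and 11.9% in NPC, beside 30.8% and 28.9% for the median gene. The cause of the other shifts was not tested. No paired analysis was possible because there was 1 library per cell type, and for the same reason no library could be left out in turn. Depth limited the ESC side, where 8 of the 9 genes had 12 reads or fewer and *Foxa1* had 1.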
